A study of Mus musculus with 24 samples.

Results

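The 38 genes described here are the members of the mouse Hox clusters listed in a table of 24421 genes, measured by RNA sequencing in sorted epithelium of colon and ileum. They were taken by symbol, as Hoxa, Hoxb, Hoxc or Hoxd followed by a paralogue number, and comprise 11 Hoxa, 9 Hoxb, 9 Hoxc and 9 Hoxd genes. By paralogue number, 8 are anterior (1 to 3), 15 central (4 to 8) and 15 posterior (9 to 13). Hox genes encode homeodomain transcription factors that lie in clusters in the order in which they are used along the body axis, with low paralogue numbers at the head end and high numbers at the tail end. In the gut tube, posterior Hox genes are known for their part in patterning the hindgut. The distal part of the colon arises from the hindgut, whereas the ileum arises from the midgut. The sample titles name the colon without a segment. Adult gut epithelium keeps part of this regional code.

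Epithelial cells were sorted as Villin-tomato+ and CD45-negative from 12 C57BL/6 mice aged 8 to 14 weeks, and colon and ileum of each mouse gave 1 library each. There were 3 KO late mice (8 weeks after chimerism) and 4 KO early mice (2 weeks after chimerism), set against 2 WT irradiated mice (8 weeks after chimerism) and 3 WT non-irradiated mice, which the labels call non treated. The series title names gut macrophages lacking the IL-10 receptor alpha chain and an epithelial response driven by IL-22. The labels give the genotypes only as KO and WT, and name no agent or allele beyond this. KO and WT irradiated mice are chimeras, so the difference between KO and WT concerns the transplanted cells as far as the title states it, and the tomato reporter is limited to cells in which Villin is active. Recovered depth was 8.32 to 18.69 M reads per library, and values are given as normalised reads, that is reads divided by a size factor for each library. Reads of the ribosomal RNA gene Rn45s took 0.0642 to 29.4% of a library.

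Marker genes matched the labelled tissue. The 8 epithelial markers summed to 65203.9 to 182706.7 normalised reads in KO colon, 69861.3 to 132319.1 in WT colon, 92811.4 to 252834.1 in KO ileum and 112750.1 to 203841.1 in WT ileum, with none at 0. Of the 7 ileal enterocyte markers, 7 were lower in KO colon than in KO ileum and 6 were lower in WT colon than in WT ileum, and of 7 measured markers of colonic epithelium 6 were higher in colon in each genotype (limma, adjusted p under 0.05). Hox genes are also active in mesenchyme, so the stromal markers are given beside them. The 12 stromal markers, none of them at 0 throughout a group, summed to 496.7 to 916.5 in KO colon and 439.4 to 827.2 in KO ileum, and to 377.2 to 718.1 in WT colon and 311.9 to 716.0 in WT ileum. None of the 12 passed the test between colon and ileum in KO or in WT, and their median log2 difference was 0.18 in KO and 0.19 in WT. Of 6 endothelial markers Pecam1 was higher in WT colon, of 6 markers of enteric neurons and glia Ret was lower in WT colon, and of 8 leukocyte markers Itgam was lower in colon in both genotypes, with the others not called. In sorted bulk samples, fewer cells of a type and less RNA per cell cannot be told apart.

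Promoter sequences are shown for Hoxa9, Hoxa10, Hoxa13 and Hoxd13, the 4 members with a mean in colon more than 20 times that in ileum, and for Hoxb4, the member called between KO late and WT irradiated colon. Each is the 250 bases before the start of transcription, 5′ to 3′ on the gene's own strand, from RefSeq on build GRCm38.p6. A stretch just after the start was found in a GENCODE transcript of the gene for each of these except Hoxd13. Capitals mark the letters TATAAA, searched on both strands, where overlapping matches are joined. The Hoxa9 window lies at chr6:52227371-52227620 on the minus strand, that of Hoxa10 at chr6:52234940-52235189 on the minus strand, that of Hoxa13 at chr6:52260881-52261130 on the minus strand, that of Hoxd13 at chr2:74667975-74668224 on the plus strand and that of Hoxb4 at chr11:96318017-96318266 on the plus strand.
Hoxa9: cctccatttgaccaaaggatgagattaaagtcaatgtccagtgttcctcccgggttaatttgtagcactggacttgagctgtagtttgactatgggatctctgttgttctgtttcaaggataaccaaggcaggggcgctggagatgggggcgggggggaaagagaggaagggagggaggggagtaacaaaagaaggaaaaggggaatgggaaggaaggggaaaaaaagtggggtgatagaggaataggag
Hoxa10: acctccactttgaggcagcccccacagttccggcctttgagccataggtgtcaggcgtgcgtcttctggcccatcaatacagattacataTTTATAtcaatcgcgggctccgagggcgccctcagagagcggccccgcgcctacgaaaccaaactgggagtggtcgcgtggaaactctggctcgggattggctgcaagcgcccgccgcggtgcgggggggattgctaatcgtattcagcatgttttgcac
Hoxa13: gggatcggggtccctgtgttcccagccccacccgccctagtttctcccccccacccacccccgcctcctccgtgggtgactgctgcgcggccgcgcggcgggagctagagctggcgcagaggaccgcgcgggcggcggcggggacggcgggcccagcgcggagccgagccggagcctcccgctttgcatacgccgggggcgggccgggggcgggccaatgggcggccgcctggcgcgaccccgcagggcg
Hoxd13: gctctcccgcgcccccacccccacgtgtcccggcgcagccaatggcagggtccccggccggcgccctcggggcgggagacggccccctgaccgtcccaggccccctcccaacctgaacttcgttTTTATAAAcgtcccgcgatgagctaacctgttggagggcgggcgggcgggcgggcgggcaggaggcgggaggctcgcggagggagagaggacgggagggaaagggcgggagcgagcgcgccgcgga
Hoxb4: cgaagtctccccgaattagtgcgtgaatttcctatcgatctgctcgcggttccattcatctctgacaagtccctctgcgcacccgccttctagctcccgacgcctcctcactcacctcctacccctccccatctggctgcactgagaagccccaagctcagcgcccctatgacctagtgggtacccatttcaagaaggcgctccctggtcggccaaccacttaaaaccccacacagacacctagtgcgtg
These windows differ in base composition. They hold 3 CpG in Hoxa9, 20 in Hoxa10, 35 in Hoxa13, 31 in Hoxd13 and 14 in Hoxb4, and GC makes up 49.6%, 59.2%, 80.0%, 74.4% and 58.0% of the bases in that order. TATAAA was found in the Hoxa10 window, once, and in the Hoxd13 window, in 2 overlapping matches on opposite strands. Hoxa10 has another listed promoter, at chr6:52240855-52241104, which did not hold it. Among the 24 promoters listed for 22 of the members, 16.7% held TATAAA, against 12.4% of all 32851 mouse promoters in the table. The letters TTTATG, a short form of a caudal-type site, were found on either strand in 20.8% of the Hox promoters and 10.8% of all promoters. The median GC content was 58.6% in Hox promoters and 52.4% in all.

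Of the 38 members, 29 reached 10 normalised reads in at least 2 libraries and were tested. The 9 that did not were Hoxb1, Hoxb2, Hoxc4, Hoxc5, Hoxc6, Hoxc11, Hoxc12, Hoxd1 and Hoxd9, and the highest value of any of them was 11.9. The Hoxc cluster was close to silent in both tissues: its 9 genes together summed to 48.4 ± 10.5 in KO colon and 43.0 ± 21.3 in KO ileum (SD, n = 7), and to 39.7 ± 22.9 in WT colon and 33.6 ± 14.3 in WT ileum (SD, n = 5). The other clusters were not silent. The Hoxa genes summed to 1287.2 ± 171.6 in KO colon and 147.0 ± 36.4 in KO ileum, and to 1724.0 ± 487.9 in WT colon and 133.5 ± 23.7 in WT ileum. Hoxb genes summed to 495.2 ± 186.6 in KO colon and 254.4 ± 38.7 in KO ileum, and to 809.1 ± 139.0 in WT colon and 258.7 ± 42.5 in WT ileum. Hoxd genes summed to 404.5 ± 46.2 in KO colon and 101.6 ± 34.6 in KO ileum, and to 555.2 ± 169.3 in WT colon and 83.8 ± 22.8 in WT ileum. The ranges of colon and ileum did not overlap for Hoxa or Hoxd within either genotype. For Hoxb they overlapped in KO mice and were separate in WT mice. The heat map of Hox genes by library shows this division by cluster.

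**Figure D1:**
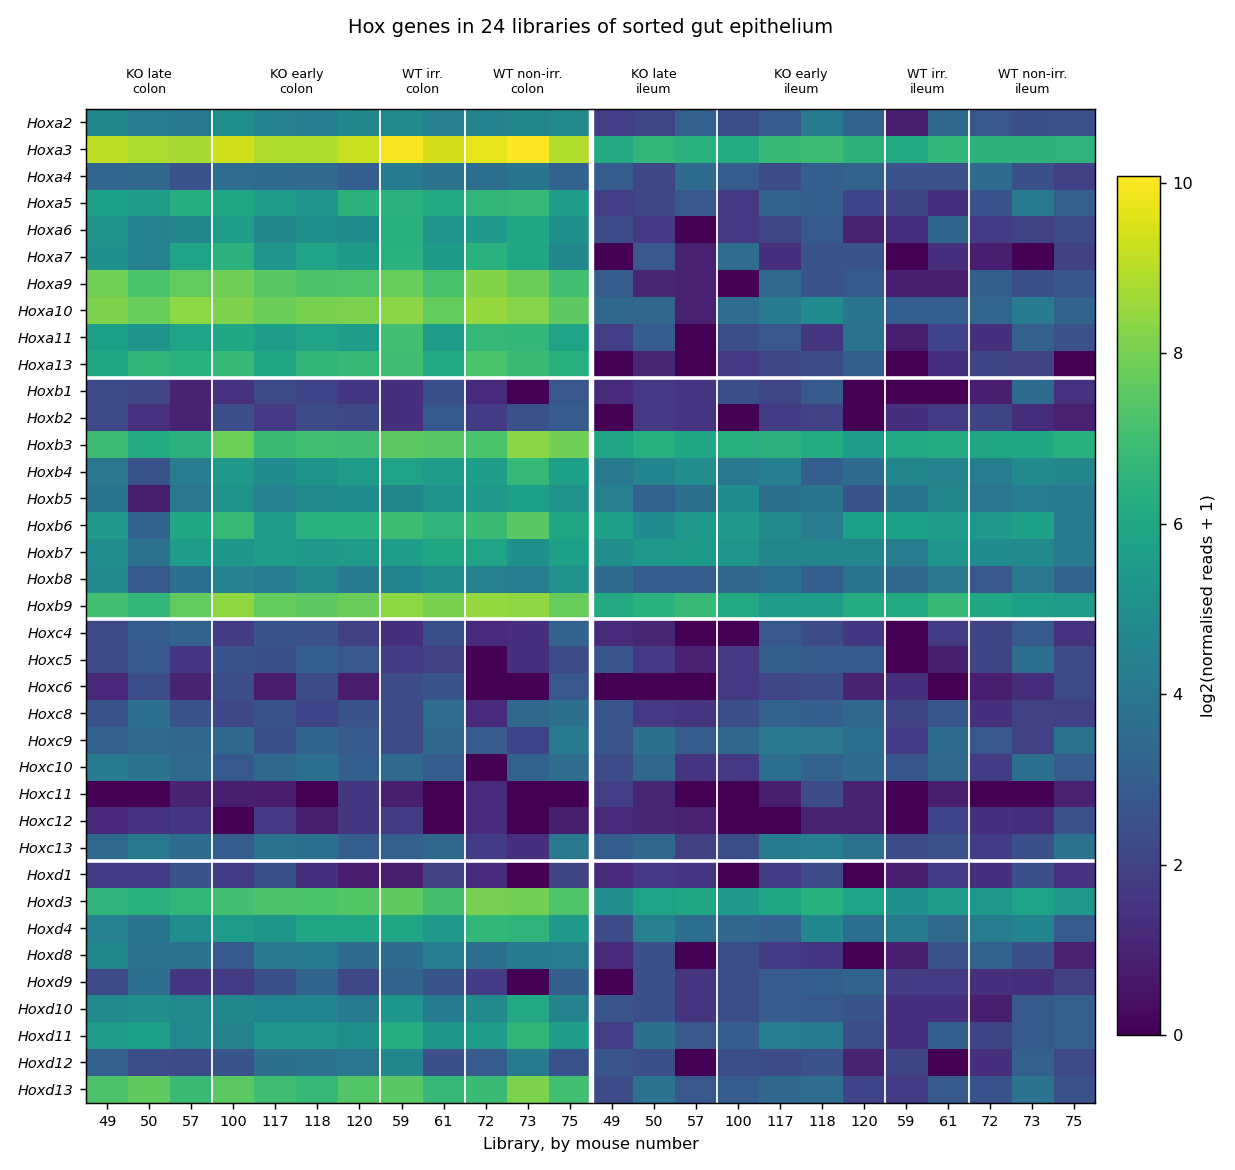
Heat map of log2(normalised reads + 1) for Hox genes (rows, by cluster and paralogue number) in 24 libraries (columns, labelled with the mouse number); colon libraries are in the left block and ileum libraries in the right block, each by mouse group. Hoxa3, Hoxa9, Hoxa10, Hoxb9 and Hoxd13 are bright in the colon block, posterior Hoxa genes are dark in the ileum block, and the Hoxc rows are dark in both.

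Levels of different genes were compared per kilobase of exon, with exon lengths from GENCODE on GRCm38. In colon, over all 12 mice, the highest medians per kilobase were 96.2 for Hoxa3, 83.9 for Hoxa10, 83.4 for Hoxb9, 56.7 for Hoxd13, 43.6 for Hoxb6, 38.7 for Hoxa13 and 38.2 for Hoxa6. In ileum the order was led by Hoxb genes: medians per kilobase were 26.6 for Hoxb9, 20.9 for Hoxb6, 18.0 for Hoxb7, 16.3 for Hoxb3, 15.2 for Hoxa3 and 11.9 for Hoxd3. Hoxa9 and Hoxa13 were low in ileum, at 0.851 and 0.769, and Hoxa10 stood at 2.78. Hoxd4 had a median per kilobase of 15.2 in colon and 3.88 in ileum.

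The first comparison asked which Hox genes differ between colon and ileum, and whether this holds in KO and in WT mice. In KO mice, 17 of the 29 tested members were higher in colon and 0 were lower, whereas of all 19588 genes tested 9.79% were higher and 21.8% were called in either direction (limma, Benjamini-Hochberg adjusted p under 0.05). The median log2 fold change on the log2(value + 1) scale was 1.41 over the 29 members and 0.04 over all genes. In WT mice, 22 of 29 members were higher and 0 lower, where 11.2% of all genes were higher and 22.2% called in either direction, and the medians were 2.16 for the members and -0.01 for all genes. At an unadjusted p under 0.05, 19 members passed in KO and 24 in WT. Counts at an unadjusted p, here and below, stand without the share of all genes at that p, so they show no excess by themselves. All 17 members called in KO were called in WT, and the other 5 called in WT were Hoxa4, Hoxb4, Hoxb6, Hoxb7 and Hoxb8. By cluster, 9 of 11 Hoxa genes, 2 of 7 tested Hoxb genes, 0 of 4 Hoxc genes and 6 of 7 Hoxd genes were called in KO. In WT the counts were 10 of 11, 6 of 7, 0 of 4 and 6 of 7. By paralogue class, the median log2 fold change in KO was 1.19 for the 5 tested anterior genes, 0.67 for 12 central and 2.08 for 12 posterior genes, and in WT it was 2.16, 1.39 and 3.24.

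With the colon and ileum of a mouse as a block, 19 members were called in KO and 24 in WT. Counts with the block, here and below, stand without the share of all genes called with it, so they show no excess by themselves. The block added Hoxb8 (log2 fold change 0.79, adjusted p = 0.0473, limma) and Hoxd12 (1.18, adjusted p = 0.0321) in KO. It added Hoxb5 (1.06, adjusted p = 0.0281) and Hoxd12 (1.59, adjusted p = 0.0151) in WT. Every colon library lay above every ileum library for 12 members, namely Hoxa3, Hoxa5, Hoxa6, Hoxa7, Hoxa9, Hoxa10, Hoxa11, Hoxa13, Hoxd3, Hoxd10, Hoxd11 and Hoxd13, where 3.06% of all tested genes were separated in this direction. No member was separated in the other direction, as 3.81% of all tested genes were.

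**Figure D2:**
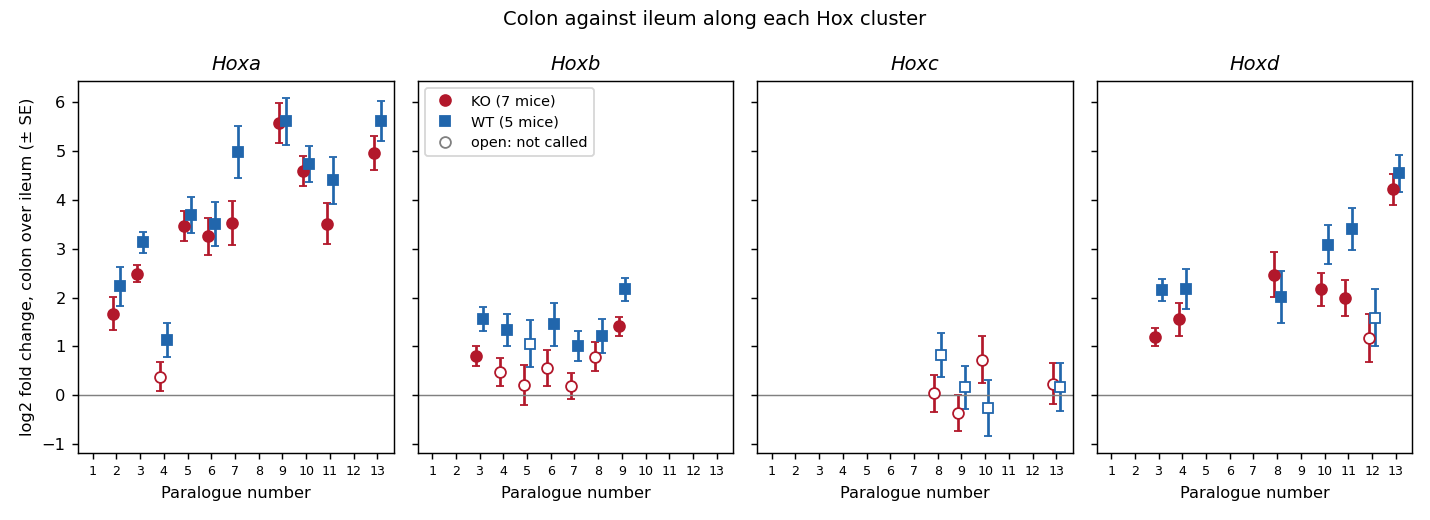
Log2 fold change of colon over ileum (± SE, limma on log2(value + 1)) against paralogue number in each cluster, for tested members, in KO (circles, 7 mice) and WT (squares, 5 mice); filled symbols passed an adjusted p of 0.05. Values in Hoxa reach 5.57 in KO and 5.61 in WT at paralogue 9, those in Hoxb stay between 0.19 and 2.17, and those in Hoxc straddle 0.

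Among posterior genes, Hoxa9, a paralogue known for its role in blood progenitors, had the largest log2 fold change in KO, and in WT its value equalled that of Hoxa13. In colon, Hoxa9 ranged from 149.1 to 240.3 normalised reads in the 7 KO mice with a median of 181.5, stood at 211.5 and 139.8 in WT irradiated mice and at 294.3, 227.0 and 129.4 in WT non-irradiated mice. In ileum it ranged from 0.0 to 9.8 in KO mice with a median of 5.0, stood at 0.8 and 0.8 in WT irradiated mice and at 7.2, 4.5 and 5.5 in WT non-irradiated mice. All colon libraries were high and all ileal libraries near 0, with no overlap. The log2 fold change was 5.57 ± 0.41 (SE) in KO and 5.61 ± 0.48 in WT (limma, adjusted p = 2.57e-10 and 4.71e-09). The ileal value rested on 30 reads over 7 KO libraries and 20 reads over 5 WT libraries.

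Hoxa10 is known for its role in the uterus and in vertebral patterning. Its colon values ranged from 214.0 to 332.4 in KO mice with a median of 272.2, and were 321.8 and 206.7 in WT irradiated and 360.6, 300 and 189.6 in WT non-irradiated mice. Its ileal values ranged from 0.9 to 28.2 in KO mice with a median of 11.1, and were 7.1 and 7.0 in WT irradiated and 8.8, 16.4 and 8.3 in WT non-irradiated mice. The groups did not overlap, and the log2 fold change was 4.60 ± 0.31 in KO and 4.74 ± 0.37 in WT (limma, adjusted p = 6.7e-11 and 9.72e-10). Hoxa11, a partner of Hoxa10 in limb and reproductive tract, ranged in colon from 36.6 to 63.2 in KO mice with a median of 52.0, with 134.2 and 46.1 in WT irradiated and 104.5, 101.0 and 54.6 in WT non-irradiated mice. In ileum Hoxa11 ranged from 0.0 to 12.5 in KO mice with a median of 4.4, with 0.8 and 3.1 in WT irradiated and 1.6, 7.5 and 4.6 in WT non-irradiated mice. Colon was again above ileum in all libraries, by 3.51 ± 0.42 in KO and 4.40 ± 0.49 in WT on the log2 scale (limma, adjusted p = 6.24e-07 and 3.1e-07). Of the exon length of Hoxa11, 35.0% is shared with Hoxa11os on the opposite strand, and the sources used here do not give the strand setting of the counting, so their reads may not have been told apart.

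Hoxa13, needed for distal limb, genital tubercle and hindgut development in mice, is the last gene of its cluster. In colon it ranged from 61.5 to 105.4 in KO mice with a median of 94.8, and had 124.3 and 69.1 in WT irradiated and 146.5, 116.6 and 77.9 in WT non-irradiated mice. In ileum it ranged from 0.0 to 7.3 in KO mice with a median of 2.2, and had 0.0 and 1.6 in WT irradiated and 3.2, 3.0 and 0.0 in WT non-irradiated mice. Hoxa13 was thus present in every colon library, and 4 ileal libraries held no read of it. The log2 fold change was 4.97 ± 0.35 in KO and 5.61 ± 0.41 in WT (limma, adjusted p = 1.03e-10 and 3.17e-10). Hoxd13, its paralogue in the Hoxd cluster, known for digit patterning and for the anal sphincter in mice, ranged in colon from 104.1 to 194.9 in KO mice with a median of 152.4, with 181.9 and 104.8 in WT irradiated and 116.0, 270.5 and 129.4 in WT non-irradiated mice. In ileum Hoxd13 ranged from 3.1 to 13.4 in KO mice with a median of 6.7, with 2.4 and 6.2 in WT irradiated and 4.8, 13.4 and 4.6 in WT non-irradiated mice. Its groups did not overlap, and the log2 fold change was 4.22 ± 0.32 in KO and 4.55 ± 0.38 in WT (limma, adjusted p = 4.46e-10 and 2.7e-09).

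**Figure D3:**
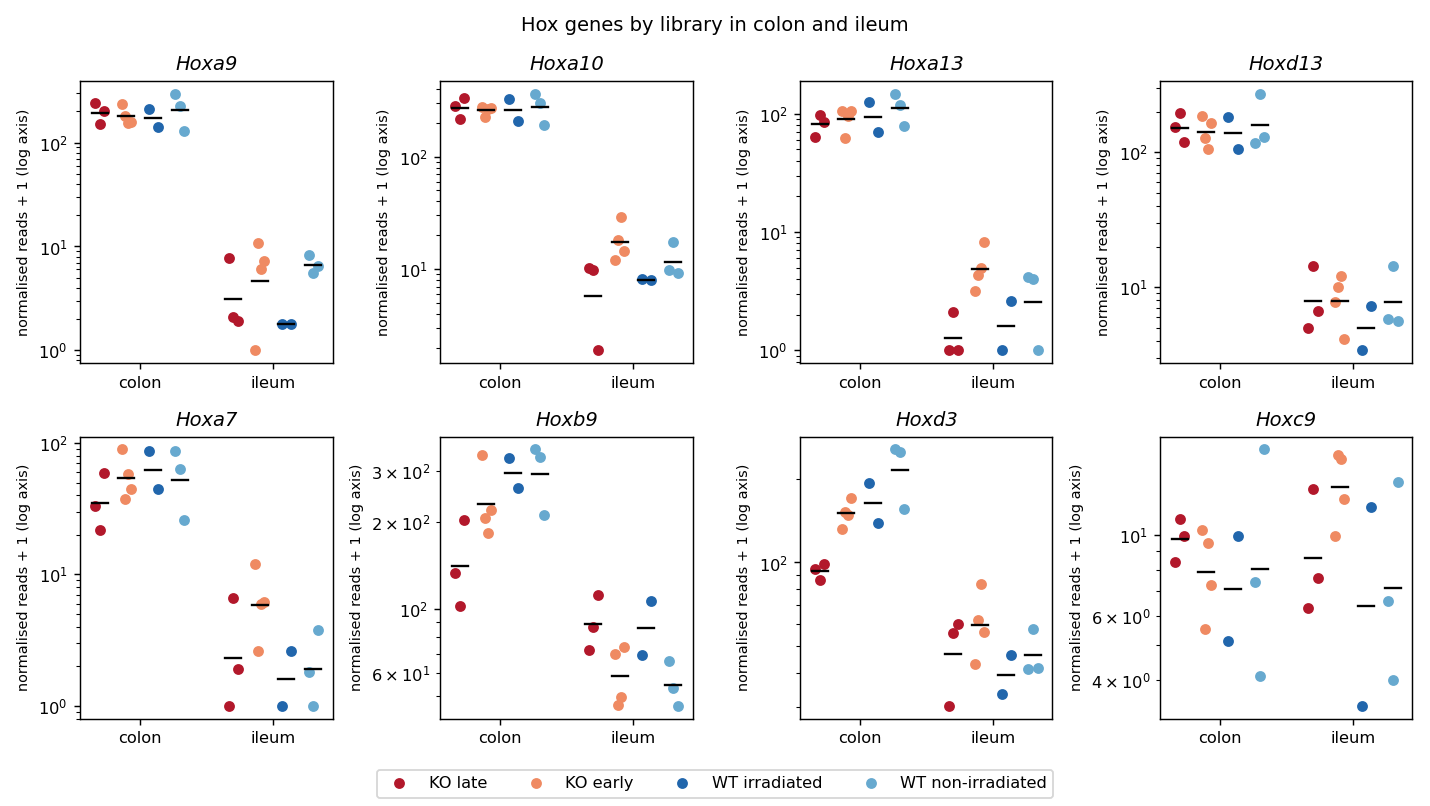
Normalised reads + 1 on a log axis for 8 members in colon (left side of each panel) and ileum (right side), 1 point per library, coloured by mouse group; black lines are group means of the log values. For Hoxa9, Hoxa10, Hoxa13, Hoxd13, Hoxa7 and Hoxd3 all colon points lie above all ileum points, while Hoxb9 shows a smaller step and Hoxc9, between 2.4 and 16.1 normalised reads, shows none.

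Within Hoxd, the neighbours Hoxd10 and Hoxd11, known from limb and lumbosacral patterning, were lower in level but also separate. Hoxd10 ranged in colon from 17.4 to 30.8 in KO mice with a median of 25.3, with 38.7 and 17.1 in WT irradiated and 26.8, 66.8 and 21.7 in WT non-irradiated mice. In ileum Hoxd10 ranged from 1.9 to 6.5 in KO mice with a median of 5.2, with 1.6 and 1.6 in WT irradiated and 0.8, 6.0 and 7.4 in WT non-irradiated mice. Every colon value was above every ileal one, and the log2 fold change was 2.17 ± 0.34 in KO and 3.08 ± 0.40 in WT (limma, adjusted p = 2.64e-05 and 2.48e-06). Hoxd11 ranged in colon from 21.9 to 50.8 in KO mice with a median of 37.3, with 76.5 and 39.4 in WT irradiated and 44.6, 94.8 and 49.0 in WT non-irradiated mice. In ileum Hoxd11 ranged from 2.7 to 18.7 in KO mice with a median of 6.7, with 1.6 and 7.0 in WT irradiated and 3.2, 6.0 and 7.4 in WT non-irradiated mice. Its separation was narrow, 21.9 in the lowest colon library against 18.7 in the highest ileal library, both from KO early mice. The log2 fold change of Hoxd11 was 1.99 ± 0.37 in KO and 3.40 ± 0.43 in WT (limma, adjusted p = 0.000208 and 1.96e-06). Hoxd12, between Hoxd11 and Hoxd13 in the cluster, was not called without the block (1.18 ± 0.49 in KO and 1.59 ± 0.59 in WT, adjusted p = 0.0987 and 0.0562), and its values over all libraries ended at 23.9. 

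Hoxb9 was the posterior Hoxb gene, and its pattern differed in that ileum was far from 0. In colon Hoxb9 ranged from 101.6 to 339.0 in KO mice with a median of 202.2, with 331.7 and 261.7 in WT irradiated and 355.5, 335.8 and 209.7 in WT non-irradiated mice. In ileum it ranged from 45.6 to 111.1 in KO mice with a median of 70.8, with 68.1 and 105.4 in WT irradiated and 64.9, 52.2 and 45.2 in WT non-irradiated mice. Colon exceeded the ileum of the same mouse in 12 of 12 mice, although the colon of KO late mouse 50 (101.6) lay below the highest ileal value. The log2 fold change was 1.41 ± 0.20 in KO and 2.17 ± 0.24 in WT (limma, adjusted p = 8.45e-06 and 2.23e-07).

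Among central genes, those of Hoxa showed the tissue difference most clearly. Hoxa5, which in mice is needed for lung and gut maturation, ranged in colon from 37.3 to 87.2 in KO mice with a median of 53.3, with 87.2 and 71.4 in WT irradiated and 99.4, 102.6 and 48.2 in WT non-irradiated mice. In ileum Hoxa5 ranged from 2.2 to 8.1 in KO mice with a median of 3.3, with 3.2 and 1.6 in WT irradiated and 4.8, 16.4 and 7.4 in WT non-irradiated mice. No ileal value reached the colon values, and the log2 fold change was 3.46 ± 0.31 in KO and 3.69 ± 0.37 in WT (limma, adjusted p = 7.97e-09 and 5.04e-08). Hoxa6, its neighbour, ranged in colon from 21.7 to 47.2 in KO mice with a median of 28.6, with 82.3 and 37.2 in WT irradiated and 42, 65.3 and 32.1 in WT non-irradiated mice. In ileum Hoxa6 ranged from 0.0 to 6.0 in KO mice with a median of 2.2, with 1.6 and 8.6 in WT irradiated and 2.4, 3.0 and 3.7 in WT non-irradiated mice. Tissues were again apart, by 3.26 ± 0.38 in KO and 3.5 ± 0.45 in WT on the log2 scale (limma, adjusted p = 4.63e-07 and 2.18e-06).

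Hoxa7, a thoracic-level gene in the embryo, ranged in colon from 20.8 to 88.5 in KO mice with a median of 44.0, with 86.4 and 43.9 in WT irradiated and 85.4, 62.2 and 24.9 in WT non-irradiated mice. In ileum Hoxa7 ranged from 0.0 to 11.1 in KO mice with a median of 5.0, with 0.0 and 1.6 in WT irradiated and 0.8, 0.0 and 2.8 in WT non-irradiated mice. Colon and ileum did not overlap, and the log2 fold change was 3.52 ± 0.45 in KO and 4.98 ± 0.54 in WT (limma, adjusted p = 2.08e-06 and 1.68e-07). Hoxa7 shares 20.4% of its exon length with Hoxaas3 on the opposite strand, and their reads may not have been told apart. Hoxa4, by contrast, stayed low, with medians of 10.3 in colon and 5.7 in ileum over the 12 mice, and was called in WT (1.14 ± 0.35, adjusted p = 0.0206, limma) and not in KO (0.38 ± 0.30, adjusted p = 0.446). Hoxd8 was low too, at medians of 14.25 in colon and 2.2 in ileum, yet higher in colon in 12 of 12 mice, by 2.47 ± 0.46 in KO and 2.01 ± 0.54 in WT (limma, adjusted p = 0.000227 and 0.00812).

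Central Hoxb genes overlapped between the tissues. Hoxb6 ranged in colon from 8.3 to 109.6 in KO mice with a median of 65.1, with 122.6 and 92.9 in WT irradiated and 116.0, 180.3 and 61.9 in WT non-irradiated mice. In ileum Hoxb6 ranged from 18.1 to 50.7 in KO mice with a median of 39.9, with 49.9 and 46.8 in WT irradiated and 40.1, 53.7 and 17.5 in WT non-irradiated mice. All 5 WT colons lay above all 5 WT ilea, and KO colon and KO ileum overlapped. The log2 fold change of Hoxb6 was 0.56 ± 0.37 in KO and 1.45 ± 0.44 in WT (limma, adjusted p = 0.362 and 0.019). Hoxb7 ranged in colon from 12.5 to 48.7 in KO mice with a median of 41.9, with 49.4 and 65.4 in WT irradiated and 58.6, 32.6 and 52.2 in WT non-irradiated mice. In ileum Hoxb7 ranged from 22.8 to 43.7 in KO mice with a median of 30.7, with 18.2 and 37.5 in WT irradiated and 28.8, 26.8 and 16.6 in WT non-irradiated mice. Its tissues overlapped in both genotypes, with 0.19 ± 0.26 in KO and 1.01 ± 0.31 in WT (limma, adjusted p = 0.694 and 0.0189). Hoxb8 ranged in colon from 5.8 to 26.0 in KO mice with a median of 18.0, with 22.2 and 30.5 in WT irradiated and 20.4, 18.7 and 35.4 in WT non-irradiated mice. In ileum Hoxb8 ranged from 6.6 to 13.6 in KO mice with a median of 8.9, with 9.5 and 14.8 in WT irradiated and 5.6, 14.9 and 8.3 in WT non-irradiated mice. The WT tissues were separate and the KO tissues overlapped, with 0.79 ± 0.30 in KO and 1.22 ± 0.35 in WT (limma, adjusted p = 0.0644 and 0.0132). Hoxb4 and Hoxb5 are described with the comparisons of KO late colon.

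Hoxd4, a cervical-level gene in the embryo, ranged in colon from 14.2 to 61.4 in KO mice with a median of 39.0, with 61.7 and 43.1 in WT irradiated and 101.9, 93.3 and 42.6 in WT non-irradiated mice. In ileum Hoxd4 ranged from 4.0 to 25.2 in KO mice with a median of 11.4, with 16.6 and 10.1 in WT irradiated and 17.6, 22.4 and 6.5 in WT non-irradiated mice. The 1 mouse in which colon did not exceed ileum was KO late mouse 50, and the log2 fold change was 1.56 ± 0.34 in KO and 2.17 ± 0.41 in WT (limma, adjusted p = 0.00141 and 0.000291). Hoxd3 and Hoxd4 share exons on the same strand, 62.3% of the exon length of Hoxd3 and 52.3% of that of Hoxd4 counting Gm28230, which lies there too, so their reads may have been split or assigned jointly.

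Anterior genes were not confined to ileum. Hoxa3, known for thymus and parathyroid development, was the Hox gene with the most normalised reads. In colon Hoxa3 ranged from 436.9 to 651.8 in KO mice with a median of 468.4, with 1014.8 and 660.9 in WT irradiated and 843.5, 1078.9 and 479.7 in WT non-irradiated mice. In ileum Hoxa3 ranged from 70.8 to 118.9 in KO mice with a median of 89.7, with 68.9 and 99.9 in WT irradiated and 91.3, 91.0 and 93.2 in WT non-irradiated mice. The tissues were far apart in every mouse, by 2.49 ± 0.18 in KO and 3.13 ± 0.21 in WT on the log2 scale (limma, adjusted p = 1.39e-10 and 6.94e-11). Of the Hoxa3 exon length, 25.4% is shared with transcripts of the opposite strand, among them Hoxaas2 and Hoxaas3.

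Hoxd3, its paralogue in Hoxd, ranged in colon from 85.8 to 170.3 in KO mice with a median of 131.5, with 192.6 and 138.3 in WT irradiated and 254.8, 250.3 and 155.1 in WT non-irradiated mice. In ileum Hoxd3 ranged from 29.4 to 82.6 in KO mice with a median of 55.3, with 32.5 and 45.3 in WT irradiated and 40.1, 56.7 and 40.6 in WT non-irradiated mice. The lowest colon value, 85.8 in KO late mouse 50, was just above the highest ileal value, and the log2 fold change was 1.19 ± 0.19 in KO and 2.16 ± 0.23 in WT (limma, adjusted p = 4.52e-05 and 1.25e-07). Hoxb3, the anterior Hoxb gene that was tested, ranged in colon from 74.1 to 231.0 in KO mice with a median of 118.9, with 184.4 and 176.2 in WT irradiated and 149.1, 318.7 and 239.5 in WT non-irradiated mice. In ileum Hoxb3 ranged from 44.9 to 88.0 in KO mice with a median of 71.5, with 67.3 and 73.4 in WT irradiated and 60.1, 64.1 and 83.1 in WT non-irradiated mice. Only the KO tissues overlapped, and the log2 fold change was 0.80 ± 0.20 in KO and 1.56 ± 0.24 in WT (limma, adjusted p = 0.00533 and 2.98e-05). Hoxb3 shares 52.9% of its exon length with Hoxb3os on the opposite strand. Hoxa2, a hindbrain and pharyngeal arch gene, was low, with medians of 22.5 in colon and 5.1 in ileum, and higher in colon in 12 of 12 mice (1.67 ± 0.34 in KO and 2.23 ± 0.40 in WT, limma, adjusted p = 0.000572 and 0.00016). The tested Hoxc genes Hoxc8, Hoxc9, Hoxc10 and Hoxc13 were not called in KO or WT, and their highest value in any library was 19.1.

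The second comparison asked whether the colon-ileum difference itself differs between KO and WT. It called 0 of 29 members, and 0.837% of all genes were called in either direction, 0.383% higher and 0.454% lower (limma, adjusted p under 0.05). At an unadjusted p under 0.05, 6 members passed with limma and 6 with edgeR's quasi-likelihood test on the recovered reads, and DESeq2 on those reads called Hoxd3 alone. The estimates were below 0, meaning a smaller colon excess in KO than in WT, in 26 of 29 members, and their median was -0.63 against 0.02 over all genes. The 6 limma genes at an unadjusted p under 0.05 were Hoxa3, Hoxa7, Hoxb3, Hoxb9, Hoxd3 and Hoxd11, of which Hoxd3 had the lowest p (-0.96 ± 0.30, adjusted p = 0.172). For Hoxa9 the estimate was -0.04 ± 0.63, and for Hoxa10 -0.13 ± 0.48. A member called in WT and not in KO is therefore not shown to differ between the genotypes.

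The KO comparisons within a tissue are led by the Hoxb cluster in colon. Hoxb4 is known for expanding blood stem cells when overexpressed. In KO late colon it stood at 14.9, 5.0 and 17.8 in mice 49, 50 and 57, with 41.3, 27.7, 36.5 and 46.1 in KO early mice, 54.3 and 44.6 in irradiated WT mice and 49.7, 102.6 and 51.4 in the non-irradiated ones. All 3 KO late libraries were below all 9 others. The share of all tested genes with this pattern was not computed. For KO late below the 5 WT colons alone it was 10.3%. Against WT irradiated, the group with the same time after chimerism, KO late colon was lower by a log2 fold change of -2.05 ± 0.47 (limma, adjusted p = 0.0228). It was the 1 of 29 members called, where 0.996% of all genes were higher and 1.01% lower. At an unadjusted p of 0.05, 9 members passed, and the share of all genes at that p is not given here. This call rested on few mice: the adjusted p was 0.164 without mouse 50 (log2 fold change -1.54), 0.415 without WT irradiated mouse 59 and 0.0717 without WT irradiated mouse 61. It was also not called with only those 2 groups in the fit, or with receptor reads as a covariate.

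Hoxb5, needed in mice for enteric nerve and shoulder development, had 13.6, 0.8 and 14.8 in KO late colon, and in the same tissue 36.3, 21.0, 25.6 and 28.6 in KO early mice, 23.9 and 34.2 in irradiated WT mice and 43.3, 51.3 and 34.6 in the non-irradiated ones. The KO late libraries were again the 3 lowest, a pattern whose share over all genes was not computed, and mouse 50 was near 0. Against WT irradiated colon the log2 fold change was -1.99 ± 0.69 (limma, adjusted p = 0.149). In ileum Hoxb5 had 20.0, 7.8 and 12.3 in KO late, 28.8, 12.2, 14.1 and 5.2 in KO early, 13.5 and 23.4 in WT irradiated and 14.4, 17.9 and 16.6 in WT non-irradiated mice, with overlap of all groups. Between colon and ileum Hoxb5 was not called without the block (0.22 ± 0.41 in KO and 1.06 ± 0.48 in WT, limma, adjusted p = 0.769 and 0.131).

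Over the cluster, all 7 tested Hoxb genes had estimates below 0 in KO late against WT irradiated colon, from -2.05 to -0.97. In mouse 50, Hoxb6 stood at 8.3, Hoxb7 at 12.5 and Hoxb8 at 5.8, each the lowest of the 12 colon libraries. Averaged over KO late colon, Hoxb6 was 38.5 ± 28.6 (SD, n = 3) and 53.6 ± 16.3 without mouse 50 (n = 2), against 114.7 ± 43.7 in WT colon (n = 5). Hoxb9 was 145.4 ± 51.5 in KO late colon and 167.4 ± 49.3 without mouse 50, against 298.9 ± 61.2 in WT colon. The 11 members, Hoxa3, Hoxa4, Hoxa6, Hoxb3 to Hoxb7, Hoxb9, Hoxd3 and Hoxd4 were lower in all 3 KO late than in both WT irradiated colons, where 18.2% of all tested genes were. In the same comparison, the 11 tested posterior genes outside Hoxb had log2 fold changes from -0.97 (Hoxd12) to 0.60 (Hoxc10) and 0 were called. Of the 4 with the largest tissue difference, Hoxa9 was 0.17 ± 0.70, Hoxa10 0.08 ± 0.53, Hoxa13 -0.20 ± 0.59 and Hoxd13 0.13 ± 0.55, with adjusted p from 0.845 to 0.939 (limma).

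**Figure D4:**
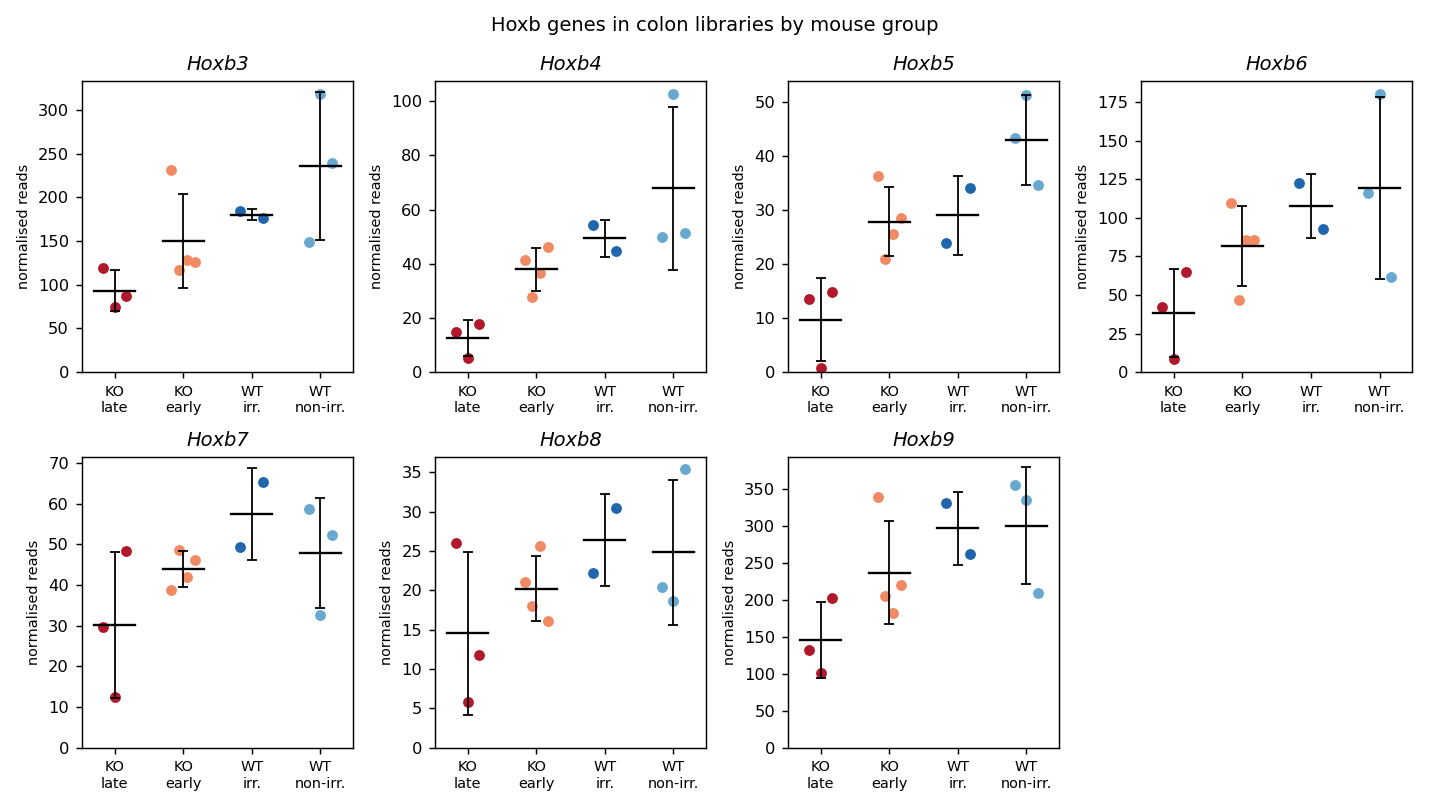
Normalised reads of the 7 tested Hoxb genes in colon, 1 point per library, by mouse group, with mean (black line) and SD (bars). For Hoxb4 the 3 KO late libraries, at 14.9, 5.0 and 17.8, lie below all other colon libraries. The share of all genes with this pattern was not computed.

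Receptor reads, that is reads on 1455 olfactory and vomeronasal receptor genes used as a measure of background, moved with this group. They were counted per M reads other than those of Rn45s. They made up 888.5 ± 162.9 per M in KO late colon (SD, n = 3) and 512.9 ± 109.1 in that of KO early mice (n = 4). In WT colon they made up 378.7 ± 241.2 in irradiated mice (SD, n = 2) and 347.3 ± 249.0 in non-irradiated mice (n = 3). With receptor reads as a covariate, the Hoxb4 log2 fold change of KO late against WT irradiated colon was -1.81 (limma, adjusted p = 0.061). Markers of other cell types were also compared. The 6 markers of enteric neurons and glia summed to 490.5 to 677.1 in KO late and 273.2 to 678.9 in KO early colon. In WT colon they summed to 176.2 to 276.5 in irradiated and 151.6 to 388.1 in non-irradiated mice. Ret, a receptor of enteric neurons, was the 1 of them called in KO late against WT irradiated (2.40 ± 0.53, limma, adjusted p = 0.017). The 12 stromal markers summed to 510.8 to 851.9 in KO late and 496.7 to 916.5 in KO early colon. In WT irradiated and WT non-irradiated colon they summed to 408.9 to 625.2 and 377.2 to 718.1. The 6 endothelial markers summed to 724.0 to 1185.0 in KO late and 583.5 to 728.9 in KO early colon. Their WT sums were 558.9 to 785.9 in irradiated and 438.2 to 969.1 in non-irradiated mice. Between KO late and WT irradiated colon, 0 markers of either list were called, with median log2 fold changes of 0.77 and 0.93. For KO early against WT irradiated colon the medians were 0.42 and 0.19, also with 0 called. Leukocyte markers summed to 402.4 to 814.4 in KO late, 427.0 to 511.1 in KO early and 326.0 to 504.8 in WT irradiated colon, with 0 called. Among epithelial lists in KO late against WT irradiated colon, the 7 colonic markers had a median of -0.91 with 0 called. The 7 ileal enterocyte markers had a median of -0.56, with Slc10a2 and Mep1a lower. The part of these cell types in the Hoxb result was not tested.

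Further comparisons of KO late colon were chosen after these values had been seen. Against WT non-irradiated colon, 6 members were lower and 0 higher, where 3.47% and 2.27% of all genes were: Hoxb3 (-1.29 ± 0.31), Hoxb4 (-2.42 ± 0.42), Hoxb5 (-2.54 ± 0.62), Hoxb9 (-1.06 ± 0.31), Hoxd3 (-1.21 ± 0.29) and Hoxd4 (-1.77 ± 0.53), with adjusted p from 0.00168 to 0.0493 (limma). In this contrast Acta2 of the stromal list and Ret and Elavl4 of the neuronal list were higher. Slc26a3 and Car4 of the colonic list were lower, and 3 of 7 ileal enterocyte markers were lower and 1 higher. Rn45s took 0.0642 to 1.43% of reads in KO late colon, against 16.1%, 20.0% and 0.105% in WT mice 72, 73 and 75, and mouse 75 had 634.9 receptor reads per M against 201.8 and 205.3 in the others. Their part was not tested. KO late mice are chimeras and WT non-irradiated mice are not, so genotype and irradiation or transplant cannot be told apart in this contrast. With the block, Hoxb6 was called as well. This count fell to 1 without KO late mouse 50 or WT mouse 73 and to 2 without WT mouse 72. Without WT mouse 75 it was 10, of which Hoxc10 and Hoxc13 were higher in KO late colon and the others lower. It was 4 or 5 without any other KO mouse and 0 with only the 2 groups in the fit. These same 6 members were lower in all 3 KO late than in all 5 WT colons, where 10.3% of all tested genes were. Between all 7 KO and all 5 WT colons, 0 members were separated in this way, as 2.34% of all tested genes were. Against KO early colon, 0 members were called, where 0.0817% of all genes were, 0.0613% higher and 0.0204% lower. There 7 members passed an unadjusted p of 0.05, and DESeq2 called Hoxb4 (limma: -1.66 ± 0.40, adjusted p = 0.118).

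In comparisons likewise added after seeing the values, over pooled KO (7 mice) and WT (5 mice) colon, Hoxb3 (-0.79 ± 0.22, adjusted p = 0.0321) and Hoxb4 (-1.33 ± 0.30, adjusted p = 0.00896) were lower and 0 members higher, where 5.75% of all genes were lower and 2.55% higher (limma). All KO mice are chimeras and the WT non-irradiated mice are not, so genotype is partly mixed with irradiation and transplant here. edgeR and TMM scaling each called 4 members, adding Hoxa3 and Hoxd3. Leaving out 1 mouse gave 0 calls without WT mouse 73, and 1 (Hoxb4) without any of mice 49, 50, 57, 59 and 118. It gave 4 without mouse 61, 6 without mouse 100 and 8 without WT mouse 75. Of those 8, Hoxc13 was higher in KO colon and the others lower. In ileum, pooled KO against WT called 0 members, with 0.00511% of genes higher and 0.0153% lower. At an unadjusted p under 0.05, 1 member passed there with limma (Hoxa7, 1.15 ± 0.50, adjusted p = 0.449), 0 with edgeR and 2 with DESeq2.

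Colon and ileum of the same mouse show the Hoxb4 pattern directly. In KO late mice the pairs of colon and ileum values were 14.9 and 16 in mouse 49, 5.0 and 22.3 in mouse 50 and 17.8 and 29.4 in mouse 57, so that colon was below ileum in 3 of 3 mice. In the other 9 mice colon was above ileum, and Hoxb4 in ileum stood at 15.5, 19.5, 7.1 and 10.4 in KO early, 23.0 and 21.9 in WT irradiated and 17.6, 26.8 and 23.1 in WT non-irradiated mice. The colon-ileum difference of Hoxb4 was 0.48 ± 0.28 in KO (limma, adjusted p = 0.274) and 1.33 ± 0.33 in WT (adjusted p = 0.00414). Without KO late mouse 50 it was called in KO too, at 0.89 (adjusted p = 0.0238). In a test added after seeing the values, KO late and KO early differed in this difference by -2.44 ± 0.56 (adjusted p = 0.0351, limma), the 1 member called, where 2.51% of all genes were, 0.424% higher and 2.08% lower. With the mouse as a block, 6 members were called: Hoxa10 and Hoxa13 higher, and Hoxb4, Hoxb5, Hoxb6 and Hoxb9 lower. The share of 2.51% is for the fit without the block, and that with the block is not given here. Without KO late mouse 50 the Hoxb4 estimate was -1.92 (adjusted p = 0.156), and of the 12 mice left out in turn, Hoxb4 was called without WT mice 72 and 75 and not called without any other. KO late and WT differed by -2.25 ± 0.54 (adjusted p = 0.0545), with 0 members called, where 0.674% of all genes were, 0.398% higher and 0.276% lower. At an unadjusted p under 0.05, 7 members passed this test. With the block, Hoxb4, Hoxb6 and Hoxb9 were called (Hoxb4 adjusted p = 0.0186).

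**Figure D5:**
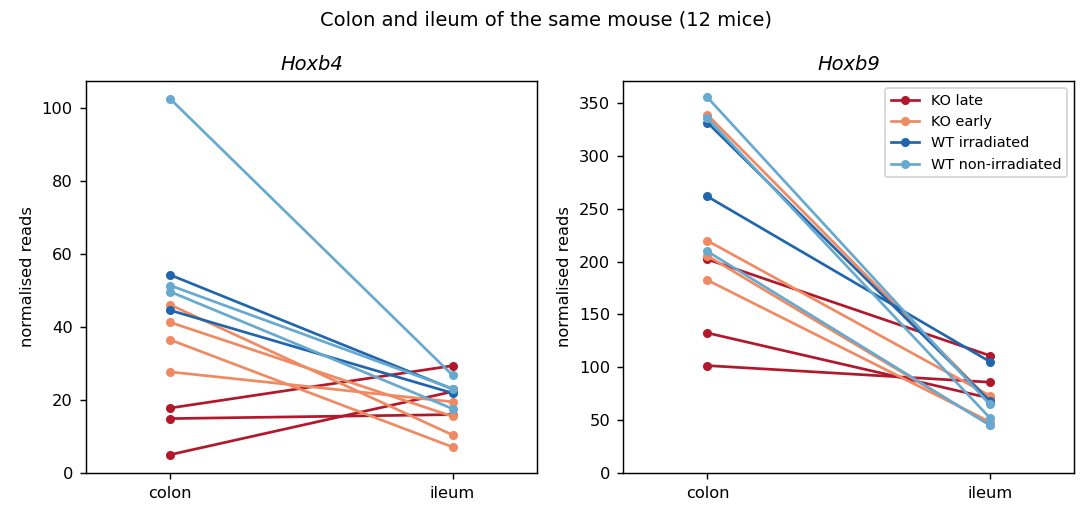
Normalised reads of Hoxb4 and Hoxb9 in colon and ileum, with a line joining the values of the same mouse, coloured by mouse group. For Hoxb4 the lines of the 3 KO late mice run upward from colon to ileum and those of the other 9 mice downward, whereas for Hoxb9 all 12 lines run downward.

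The remaining comparisons gave no member past the threshold. KO early against WT irradiated colon called 0 of 29 members, where 0.296% of genes were higher and 0.153% lower, and 1 member passed an unadjusted p of 0.05. In ileum, KO late against WT irradiated and KO early against WT irradiated called 0 members and 0% of all genes in either direction. At an unadjusted p under 0.05, the ileal KO early comparison held 6 members, Hoxa7, Hoxa9, Hoxa10, Hoxa13, Hoxd10 and Hoxd11. Their estimates ran from 1.12 to 1.86, and edgeR and DESeq2 called 0 members there. In WT irradiated ileum, Hoxa7, Hoxa9 and Hoxa13 rested on 2 reads in total each. Hoxd10 rested on 4 reads, Hoxd11 on 11 and Hoxa10 on 18. The stromal and endothelial lists had median log2 fold changes of 1.07 and 0.99 in that comparison, with 0 called, and their part was not tested. KO early and WT irradiated mice also differ in time after chimerism, 2 against 8 weeks. The ileal KO late comparison held 0 members at that p. WT irradiated against WT non-irradiated called 0 members and 0% of all genes in colon and in ileum, with 0 members in colon and 2 in ileum at an unadjusted p under 0.05. A comparison of 2 with 3 mice does not show that these groups are alike.

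Noncoding transcripts of the Hox clusters were also higher in colon. Some, such as Hoxa11os, Hoxaas3 and Hoxb3os, overlap exons of members on the opposite strand. The strand setting of the counting is not given, so their reads may not have been told apart from those of the members. Of the 20 transcripts in the list, 16 were in the table and 10 were tested. In KO 6 were higher in colon and 0 lower, and in WT 8 were higher and 0 lower, where 9.79% and 11.2% of all genes were higher, with median log2 fold changes of 1.31 and 2.13. Hoxa11os, the antisense transcript of Hoxa11, ranged in colon from 164.7 to 504.3 in KO and 255.5 to 772.8 in WT, and in ileum from 2.8 to 12.3 in KO and 4.6 to 8.6 in WT (4.96 ± 0.29 and 6.02 ± 0.34, limma, adjusted p = 4.6e-12 in both). Hoxaas3 was higher in colon by 4.05 ± 0.27 in KO and 4.72 ± 0.32 in WT. Hottip, a transcript next to Hoxa13 known for activating posterior Hoxa genes, ranged in colon from 62.1 to 232.7 in KO and 146.3 to 291.4 in WT, and in ileum from 1.9 to 14.1 in KO and 0.0 to 7.5 in WT (4.03 ± 0.45 and 6.23 ± 0.54).

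Cofactors and regulators of Hox genes were called in both directions, where 21.8% of all genes were called in KO and 22.2% in WT. Of 9 TALE cofactors, which bind DNA together with Hox proteins, KO colon had 0 higher and 1 lower and WT colon 1 higher and 1 lower. Pbx4 was lower in colon in both (-1.0 ± 0.21 and -1.15 ± 0.25, limma, adjusted p = 0.00084 and 0.0011). The caudal genes Cdx1 and Cdx2, activators of posterior Hox genes in the embryo and of intestinal identity in the adult, were not called. Cdx1 averaged 861 ± 407 in KO colon and 685 ± 194 in KO ileum (SD, n = 7), and 1196 ± 470 in WT colon and 866 ± 281 in WT ileum (SD, n = 5). Cdx2 had a log2 fold change of -0.33 ± 0.25 in KO and -0.58 ± 0.29 in WT (adjusted p = 0.42 and 0.184), and Cdx1 one of 0.23 ± 0.28 and 0.43 ± 0.33. Of the 3 tested caudal and ParaHox genes 0 were called. Gata4, a factor of proximal gut identity, was lower in colon (-2.86 ± 0.18 in KO and -3.90 ± 0.21 in WT, adjusted p = 1.9e-11 and 2.6e-12).

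Of 24 Polycomb and trithorax genes, whose products keep Hox clusters off or on, 1 was higher and 5 lower in KO colon, and 4 were higher and 4 lower in WT colon. Phf19, a Polycomb accessory protein, was higher in colon by 1.37 ± 0.21 in KO and 1.61 ± 0.24 in WT (limma, adjusted p = 1.7e-05 and 2.1e-05). Cbx8, a reader of the Polycomb mark, was lower by -1.42 ± 0.34 in KO (adjusted p = 0.0033), and Mtf2 was higher by 0.75 ± 0.18 in WT (adjusted p = 0.0031). Among 12 tested genes of retinoic acid, Wnt, Fgf and Gdf11 signalling, inputs to Hox clusters in the embryo, 1 was higher and 3 lower in KO colon and 1 higher and 0 lower in WT colon. Aldh1a3, which makes retinoic acid, was higher in KO colon (1.88 ± 0.29, adjusted p = 2.9e-05) and Acvr2a, a receptor of Gdf11, lower (-0.67 ± 0.13, adjusted p = 0.0005). The retinoic acid receptor Rarg was higher in WT colon (1.07 ± 0.20, adjusted p = 0.00021).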

How the data were processed

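RNA was sequenced from 24 libraries of 12 mice, colon and ileum of each. Per the labels' protocols, libraries were made from 100 ng of total RNA by a strand-specific kit that removes ribosomal RNA, although the molecule label says polyA RNA, and reads were 50-base single-end. The submitters' processing notes name mm9, HISAT 0.1.6, HOMER and bcl2fastq; the strand setting of the counting is unstated there and in the labels. The deposited table holds signal values per gene, which from their steps are the authors' read counts divided by a size factor for each library. Whole reads were recovered from these steps, 100% of low values being whole within 0.05; in KO early mouse 118 ileum the step is close to 1.

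The main test was limma 3.58.1 (limma-trend, R 4.3.3) on log2(value + 1) over the 8 groups of libraries, for the 19588 genes that reached a value of 10 in 2 or more libraries, with Benjamini-Hochberg adjustment over all genes and calls at an adjusted p under 0.05. All adjusted p-values are from limma unless another tool is named. The KO contrast weights its 7 mice equally and the WT contrast its 5. Pooled WT holds non-irradiated mice, whereas all KO mice are chimeras, so comparisons with pooled WT mix genotype with irradiation and transplant. Folds on this scale understate changes of low genes. Alternatives were edgeR 4.0.16 and DESeq2 1.42.0 on recovered reads, pseudocounts of 0.5 and 5, no filter, TMM scaling, receptor reads as a covariate, only the groups compared, each mouse left out, and mouse as a block. Colon and ileum with the same number come from 1 animal, per the labels; their deviations from group means correlated at -0.36 to 0.56 over 10 mice, with a median of 0.22, above 0.1 in 5. The fit was tested on simulated data.

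Members and gene lists were chosen with earlier results of these data known. Values by library, as lowest, median and highest for the 7 KO mice, are given for the 20 members with the highest mean among those called; of each list, the 2 called genes with the smallest p in KO and in WT are named, with Cdx1, Cdx2 and Gata4, and Hottip was named after its values were seen. A further Hoxb symbol, excepted by the rule, and a few other genes are not reported here or plotted. Exon lengths and overlaps are from GENCODE on GRCm38, not the files' build, and promoters are from RefSeq.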

Additional observations from a re-analysis of the deposited data

Results flagged for a closer look

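In KO early colon, Hoxb3 stood at 231.0 normalised reads in mouse 100, far from the other 3 mice, at 117.0 to 128.2. In KO early ileum, Hoxb7 stood at 37.7 in the same mouse, with the other 3 at 22.8 to 24.0. These were 2 of 58 groups of values checked, and chance alone gives about 1 in 20. In the ileum library of mouse 100, Rn45s took 29.4% of reads, the highest share of any library. Each read there stands for 2.22 normalised reads, the largest step of any library.

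The colon-minus-ileum difference of Hoxb4 ran opposite ways in every mouse: it averaged -0.92 on the log2 scale in KO late mice, against 1.53 in KO early, 1.10 in WT irradiated and 1.49 in WT non-irradiated mice. The gaps were -2.45, -2.02 and -2.41. The first was tested after the values were seen (limma, adjusted p = 0.0351), as was KO late against all WT (adjusted p = 0.0545); the gaps to each WT group alone were not tested. Hoxc8 averaged -0.66 in KO early and 0.59 in WT irradiated mice, a gap of -1.25 that was not tested and rests on values of at most 12.1 normalised reads. These were 4 of 174 pairs of mouse groups checked, over the tested members only. The check was not run over all genes, so how common such a pattern is among them is not known. The Hoxb4 gaps share the same KO late mice and are not separate results.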

How the results depend on the processing

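The 17 members called between colon and ileum in KO were called in all 21 alternatives, in which 17 to 19 members passed. Of the 22 called in WT, 18 were called in every alternative and Hoxa4, Hoxb6, Hoxb7 and Hoxb8 were not, with counts of 20 to 24. Leaving out 1 mouse gave 17 to 19 calls in KO and 20 to 23 in WT. Over 23 named members in KO, 476 of 483 values kept their direction and side of the threshold, 6 came to pass it, and 1 turned: Hoxb5 was -0.11 without KO early mouse 120, and up to 0.64 without KO late mouse 50. In WT 467 of 483 kept both, 11 no longer passed, 5 came to pass, and 0 turned.

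The comparisons of KO mice were less stable. KO against WT in the colon-ileum difference gave 1 call with DESeq2, against 0. KO late against WT irradiated colon, 1 call, gave 0 with only the groups compared and 0 with receptor reads as a covariate, and 0 to 1 with 1 mouse left out. The other comparisons were added after seeing the values. KO against WT colon, 2 calls, gave 6 with DESeq2, 4 with edgeR, 4 with TMM scaling and 1 with only the groups compared, and 0 to 8 with 1 mouse left out. KO late against WT non-irradiated colon, 6 calls, gave 0 with only the groups compared, 2 with the receptor covariate and 1 to 10 with 1 mouse left out. KO late against KO early colon, 0 calls, gave 1 with DESeq2. In the colon-ileum difference, KO late against KO early, 1 call, gave 3 with DESeq2, 3 with only the groups compared, 0 with the receptor covariate, 6 with the mouse as a replicate block and 0 to 2 with 1 mouse left out. KO late against WT, 0 calls, gave 3 with DESeq2, 1 with a pseudocount of 5, 3 with the replicate block and 0 to 1 with 1 mouse left out. The cause of these changes was not tested. With the block, 19 members were called in KO and 24 in WT between colon and ileum; beyond the calls given in the text it changed no count by more than 1.5 times. WT irradiated mice numbered 2, and low members such as the Hoxc genes, at 19.1 normalised reads or fewer, limit what could be detected.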
